A study of Mus musculus with 9 samples.

Results

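Mast cells are tissue-resident leukocytes that store proteases, histamine and heparin proteoglycan in granules and release them when IgE on their surface receptor is cross-linked. The 8 genes described here encode histidine decarboxylase, which makes histamine (Hdc), the granule proteases carboxypeptidase A3 (Cpa3), the chymases Mcpt4 and Cma1 and the tryptases Tpsb2 and Tpsab1, and the alpha and beta chains of the high-affinity IgE receptor (Fcer1a and Ms4a2). They were chosen by symbol among 49585 genes of a raw count table, and all 8 were found. Histidine decarboxylase is the sole enzyme that makes histamine in mammals. It is abundant in mast cells and basophils and is also made by some immature myeloid cells, whereas the chymases and Tpsb2 are typical of mast cells of connective tissue.

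RNA came from 9 spontaneous breast tumours of mice given an adeno-associated virus (AAV), a gene delivery vector, on days 0, 3 and 8 and collected once the criteria for euthanasia were met. There were 6 AAV-∆mut-p53 tumours, whose vector is named for the loss of mutant p53, and 3 AAV-Control tumours. All mice of both groups carried K14-Cre, which puts Cre under a keratin promoter of basal and squamous epithelium. They also had the p53 alleles Trp53wm-R172H/fl, in which R172H names an amino acid substitution, and, at a separate locus, the Cre-dependent Cas9 and EGFP allele Rosa26LSL CAS9-P2A-EGFP/+. No age, sex or interval to collection is given. AAV-∆mut-p53 tumours 4 and 5 share the number in their titles, with T1 and T2 behind it, and the labels do not say whether that is 1 animal. No label says that the samples came from separate animals, so p-values measure only the spread between these samples, which may be technical.

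Total counts ran from 18581545 to 30953250 per tumour. Levels are given as CPM, which are counts scaled to a common library size with TMM factors. Trp53 RNA was at 13.1 to 41.5 CPM in AAV-∆mut-p53 and 39.3 to 48.6 CPM in AAV-Control tumours (log2 fold change -0.42, FDR = 0.78 by edgeR), where FDR is the p-value adjusted over all 19606 genes tested. A count over the whole gene does not separate its alleles. AAV-∆mut-p53 tumour 2 stood apart. Its epithelial adhesion gene Epcam was at 32.4 CPM, against 488 to 1000 CPM in the other AAV-∆mut-p53 and 491 to 723 CPM in AAV-Control tumours. Its 10 skeletal muscle genes summed to 16100 CPM, against 11.2 to 184 CPM in the other AAV-∆mut-p53 and 10 to 101 CPM in AAV-Control tumours.

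Upstream sequences of Hdc and of the proteases are shown because Hdc and the proteases had different patterns across the tumours. Each is the 250 bases before the RefSeq start on GRCm38.p6, on the gene's own strand, and capitals mark matches to the GATA hexamers AGATAA or AGATAG and to TGATAA or TGATAG on either strand. GATA2 is a transcription factor of the mast cell lineage. Hdc (ENSMUSG00000027360.5) lies on the minus strand at chr2:126618679-126618928, inside the gene as GENCODE draws it (126593667 to 126619299). Cpa3 (ENSMUSG00000001865.2) lies on the minus strand at chr3:20242182-20242431, Mcpt4 (ENSMUSG00000061068.6) on the minus strand at chr14:56062311-56062560, and Cma1 (ENSMUSG00000022225.6) on the minus strand at chr14:55944676-55944925.
Hdc: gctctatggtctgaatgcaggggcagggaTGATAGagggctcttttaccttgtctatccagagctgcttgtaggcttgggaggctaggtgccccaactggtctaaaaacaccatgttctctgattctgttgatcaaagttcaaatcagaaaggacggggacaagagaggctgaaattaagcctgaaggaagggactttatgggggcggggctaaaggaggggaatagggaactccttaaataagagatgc
Cpa3: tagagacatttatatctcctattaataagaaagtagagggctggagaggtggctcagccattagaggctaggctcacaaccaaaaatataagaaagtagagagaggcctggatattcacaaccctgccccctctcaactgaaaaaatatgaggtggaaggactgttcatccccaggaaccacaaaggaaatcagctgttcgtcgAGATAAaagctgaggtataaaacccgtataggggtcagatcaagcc
Mcpt4: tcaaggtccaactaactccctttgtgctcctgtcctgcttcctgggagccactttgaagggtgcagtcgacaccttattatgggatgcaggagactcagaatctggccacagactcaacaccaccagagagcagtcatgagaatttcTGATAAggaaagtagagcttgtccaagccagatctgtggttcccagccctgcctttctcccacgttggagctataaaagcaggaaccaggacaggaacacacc
Cma1: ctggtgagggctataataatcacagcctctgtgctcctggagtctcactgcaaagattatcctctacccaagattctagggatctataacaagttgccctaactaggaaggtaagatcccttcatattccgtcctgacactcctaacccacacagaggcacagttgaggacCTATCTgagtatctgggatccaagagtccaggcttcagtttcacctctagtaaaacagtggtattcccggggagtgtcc
The Hdc match spans bases -221 to -216, that of Cpa3 -46 to -41, that of Mcpt4 -103 to -98 and that of Cma1 -79 to -74, counted back from the start, with Cma1's on the opposite strand. RefSeq promoters were found for 6 of the 8 genes, and all 6 hold at least 1 such hexamer, where 27.1% of 27025 promoters of the same length do. Fcer1a has 1 match and Ms4a2 has 3. The E-box letters CACATG, searched on both strands, and the palindrome CACGTG, to which the mast cell factor MITF can bind, occur in 1 of the 6, Fcer1a, and in 17.6% of all promoters. A match is a description of these letters and not evidence of binding.

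Hdc had 7.46, 9.79, 8.74, 5.41, 1.95 and 3.46 CPM in AAV-∆mut-p53 tumours 1 to 6, against 0.457, 1.17 and 2.02 CPM in AAV-Control tumours 1 to 3. All AAV-∆mut-p53 tumours except number 5 lay above every AAV-Control tumour, and number 5 lay just under AAV-Control 3, so the groups overlapped at that one point. The underlying counts were 44 to 212 in AAV-∆mut-p53 and 13 to 51 in AAV-Control tumours. Hdc averaged 6.14 ± 3.07 CPM (SD, n = 6) in AAV-∆mut-p53 and 1.21 ± 0.783 CPM (SD, n = 3) in AAV-Control tumours. In this whole-tumour RNA, more cells that make a transcript and more transcript per cell cannot be told apart.

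Cpa3, the carboxypeptidase that is among the most abundant mast cell granule proteins, was distributed in another way. It had 0.315, 31.1, 1.27, 1.79, 2.08 and 0.0815 CPM in AAV-∆mut-p53 tumours 1 to 6, against 3.79, 1.33 and 1.51 CPM in AAV-Control tumours 1 to 3. AAV-∆mut-p53 2 exceeded the next highest tumour 8.21-fold, while AAV-∆mut-p53 1 and 6, at 7 and 2 counts, were the lowest of the 9. Without tumour 2 the other 5 AAV-∆mut-p53 tumours averaged 1.11 ± 0.882 CPM (SD, n = 5), against 2.21 ± 1.37 CPM (SD, n = 3) in AAV-Control tumours.

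The chymases, a family of granule serine proteases, were likewise highest in AAV-∆mut-p53 2 and lowest in AAV-∆mut-p53 1 and 6. Mcpt4, which like human chymase cuts after aromatic residues, had 0.36, 13.2, 0.782, 0.893, 0.664 and 0.0407 CPM in AAV-∆mut-p53 tumours 1 to 6, against 1.9, 1.2 and 0.594 CPM in AAV-Control tumours 1 to 3. Cma1, a chymase by sequence whose mouse enzyme acts more like an elastase, had 0.315, 24.3, 1.27, 2.12, 2.35 and 0 CPM in AAV-∆mut-p53 tumours 1 to 6, against 2.74, 1.1 and 0.792 CPM in AAV-Control tumours 1 to 3. Its 0 in AAV-∆mut-p53 6 allows up to 0.122 CPM, the level of 3 counts. The genes lie on chromosome 14 on GRCm38, Cma1 from 55941451 to 55944675 and Mcpt4 from 56059629 to 56062313, with 114953 bases between them. Other chymase genes of that cluster were almost silent, with 10 counts of Mcpt1, 5 of Mcpt2, 2 of Mcpt9 and 1 of Cma2 over all 9 tumours together. Mcpt1 and Mcpt2 are typical of mucosal mast cells. Their longest reading frames are 86.9% and 80.3% identical to that of Mcpt4, and the sources used here do not say how reads that fit several copies were counted.

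Of the tryptases, serine proteases that form tetramers on heparin, Tpsb2 (ENSMUSG00000033825.9, chromosome 17, 25366305 to 25369098) had 0.135, 15.7, 1.12, 0.67, 0.797 and 0.0815 CPM in AAV-∆mut-p53 tumours 1 to 6, against 1.48, 1.1 and 0.594 CPM in AAV-Control tumours 1 to 3. Tumour 2 was again the highest, at 10.6 times the next. Tpsab1 (ENSMUSG00000024173.10), which lies from 25343245 to 25345562, at a distance of 20742 bases, had 5, 11, 0, 1, 1 and 0 counts in AAV-∆mut-p53 tumours 1 to 6, against 1, 2 and 0 counts in AAV-Control tumours 1 to 3. The reading frames of both tryptases are 76.8% identical. In AAV-∆mut-p53 1, Tpsab1 had more counts than Tpsb2, 5 against 3, the only tumour of the 9 in which it did.

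The receptor chains were near the limit of detection. Fcer1a (ENSMUSG00000005339.10, chromosome 1, 173221284 to 173227214), which binds IgE, had 0, 18, 2, 5, 4 and 1 counts in AAV-∆mut-p53 tumours 1 to 6, against 2, 6 and 4 counts in AAV-Control tumours 1 to 3. Ms4a2 (ENSMUSG00000024680.12, chromosome 19, 11615523 to 11623719), the signal-amplifying beta chain, had 1, 33, 0, 6, 2 and 0 counts in AAV-∆mut-p53 tumours, against 7, 2 and 7 counts in AAV-Control tumours. Both were highest in AAV-∆mut-p53 2. The gamma chain Fcer1g, which many myeloid cells share, was far more abundant and spread from 13.0 to 87.9 CPM in AAV-∆mut-p53 tumours and from 14.4 to 26.0 CPM in AAV-Control tumours.

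**Figure D1:**
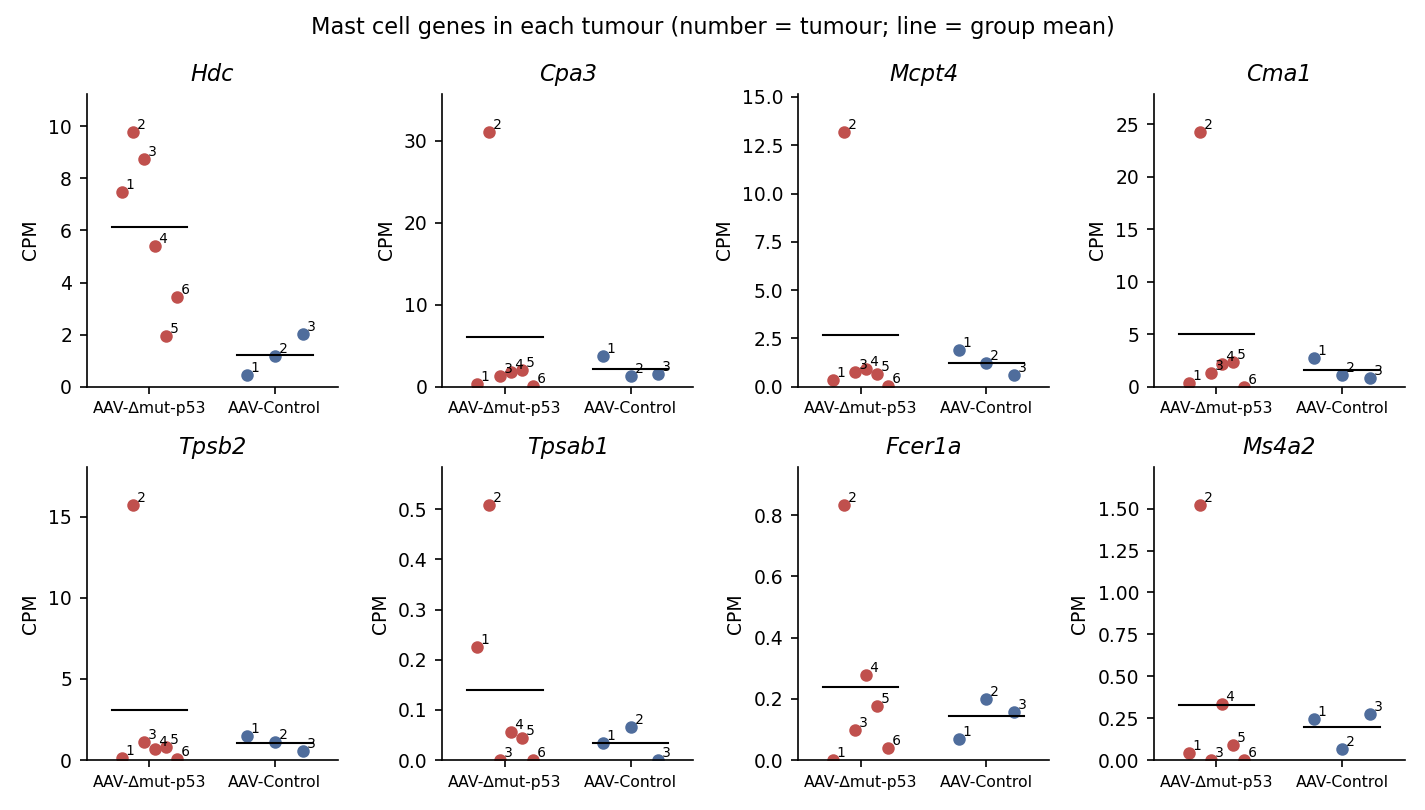
CPM of the 8 mast cell genes, AAV-∆mut-p53 tumours left and AAV-Control tumours right in each panel, with 1 point per tumour labelled by its number and a line at the group mean. AAV-∆mut-p53 2 lies far above the other tumours for the proteases and receptor chains, for example at 31.1 CPM of Cpa3, while Hdc is spread over the AAV-∆mut-p53 group from 1.95 to 9.79 CPM.

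All 8 genes were at their highest in AAV-∆mut-p53 2. Among all genes tested, 19.9% were highest in that tumour. Of the counts over all 9 tumours, tumour 2 held 69.2% for Cpa3, 67.3% for Cma1, 64% for Mcpt4 and 69.6% for Tpsb2, but 24% for Hdc. Its Hdc level was 1.12 times that of the next tumour, AAV-∆mut-p53 3. The same tumour held 1220 CPM of Il1rl1, the receptor of interleukin 33 on mast cells and other leukocytes, against 0.586 to 1.51 CPM in the other AAV-∆mut-p53 tumours and up to 12.5 CPM in AAV-Control 3. Il1rl1 is named here after its values were seen. Kit, the stem cell factor receptor that mast cells need and that mammary epithelial progenitors also make, was lowest in tumour 2, at 28.7 CPM, and was between 116 and 570 CPM elsewhere.

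The make-up of the granule proteases was compared within tumours, a measure that library scaling does not touch. Cpa3 took 28, 36.9, 28.6, 32.7, 35.3 and 40% of the counts of Cpa3, Cma1, Mcpt4 and Tpsb2 in AAV-∆mut-p53 tumours 1 to 6, against 38.3, 28.2 and 43.2% in AAV-Control tumours 1 to 3. The 95% Wilson interval was 34.7 to 39.2% in AAV-∆mut-p53 2, with 1825 counts, and 32.8 to 44.1% in AAV-Control 1, with 282 counts. Cma1 took 28, 28.8, 28.6, 38.8, 39.8 and 0% in AAV-∆mut-p53 tumours 1 to 6, against 27.7, 23.2 and 22.7% in AAV-Control tumours 1 to 3. The Cma1 share was highest in AAV-∆mut-p53 4 and 5, the tumours that share a title number. Its Wilson intervals there were 29.7 to 48.7% and 31.9 to 48.3%. Both overlapped that of AAV-∆mut-p53 3, 20.3 to 38.6%. The interval of AAV-∆mut-p53 5 lay above those of AAV-∆mut-p53 2, 26.8 to 30.9%, and AAV-Control 2, 17.1 to 30.8%. Intervals in AAV-∆mut-p53 6 spanned 11.8 to 76.9% for Cpa3 on 5 counts. Such intervals cover counting error only.

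**Figure D2:**
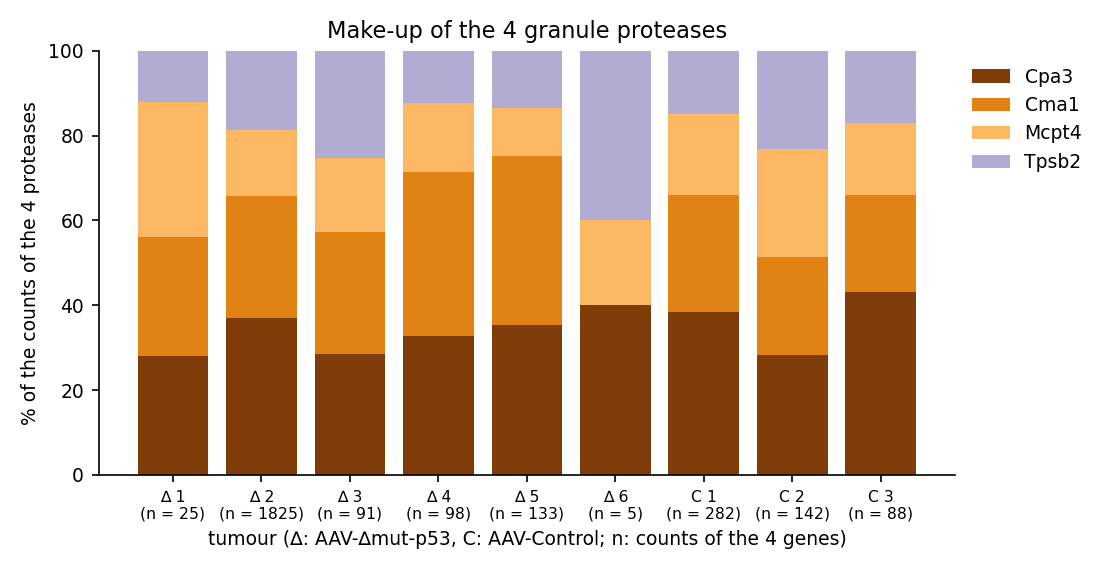
Percentage of the counts of 4 granule proteases taken by each, by tumour, with AAV-∆mut-p53 tumours left of AAV-Control tumours and the number of counts under each bar. Cpa3 takes 28 to 43.2% in every tumour, although the counts behind the bars run from 5 to 1825.

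The share of Hdc among the 8 genes differed widely between tumours. It made up 84.3, 10.1, 65.8, 46.9, 23.9 and 93.4% of the counts of the 8 genes in AAV-∆mut-p53 tumours 1 to 6, against 4.26, 18.7 and 34% in AAV-Control tumours 1 to 3. The share was above every AAV-Control tumour in AAV-∆mut-p53 1, 3, 4 and 6, and within the range of AAV-Control tumours in 2 and 5. In AAV-∆mut-p53 6, 85 of 91 counts were of Hdc (Wilson interval 86.4 to 96.9%). Per kilobase of the longest coding transcript, the level of Hdc was 14.4, 0.191, 4.17, 1.84, 0.567 and 25.7 times that of Cpa3 in AAV-∆mut-p53 tumours 1 to 6, against 0.0729, 0.53 and 0.813 times in AAV-Control tumours. Thus Hdc was below Cpa3 on this scale in all AAV-Control tumours and above it in 4 of the 6 AAV-∆mut-p53 tumours. AAV-∆mut-p53 4 and 5, which share a title number, had Hdc at 5.41 and 1.95 CPM and Cpa3 at 1.79 and 2.08 CPM.

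**Figure D3:**
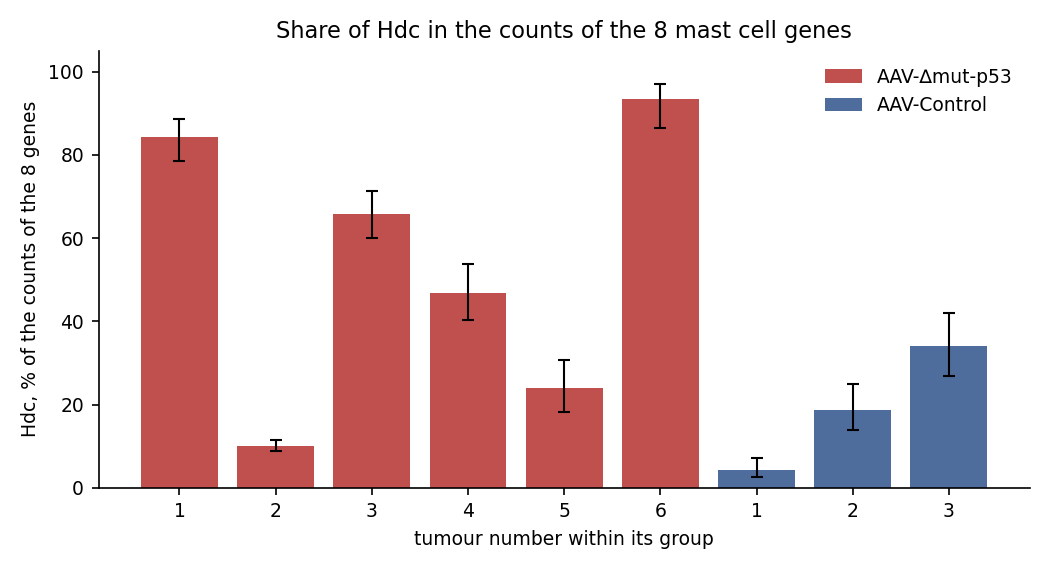
Hdc as a percentage of the counts of the 8 mast cell genes in each tumour, with AAV-∆mut-p53 tumours left of AAV-Control tumours and error bars for the 95% Wilson interval of counting error. The bars run from 10.1 to 93.4% in AAV-∆mut-p53 and from 4.26 to 34% in AAV-Control tumours.

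The comparison of AAV-∆mut-p53 with AAV-Control asked which genes differed with the vector, and it was fitted over all genes by edgeR's quasi-likelihood test. Of the 8 genes, 5 passed the filter on low counts (Hdc, Cpa3, Mcpt4, Cma1 and Tpsb2), and Tpsab1, Fcer1a and Ms4a2 did not. None of the 5 passed an FDR of 0.05, and neither did any other gene (0% of 19606 genes). At an unadjusted p under 0.05 there was 1 of the 5, Hdc, which was higher in AAV-∆mut-p53 tumours, where 3.82% of all tested genes were higher and 7.07% differed in either direction. Hdc had a log2 fold change of 2.33 (SE 0.70, 95% interval 0.78 to 3.88), an unadjusted p of 0.00706 and an FDR of 0.677, and 180 genes had a smaller p. For Hdc an exact permutation test on the log2(CPM + 1) scale, 2-sided over 84 assignments, gave an unadjusted p = 0.0357, where 0.0119 is the smallest it allows. DESeq2 called Hdc (log2 fold change 2.35, FDR = 0.0418), among 104 genes or 0.553% of those it adjusted. Of the 8 genes 0 had groups without overlap, where 3.06% of tested genes did, 1.47% with AAV-∆mut-p53 higher.

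The granule proteases had log2 fold changes of 1.46 for Cpa3 (SE 1.52), 1.11 for Mcpt4 (SE 1.39), 1.71 for Cma1 (SE 1.58) and 1.54 for Tpsb2 (SE 1.48), with FDR from 0.793 to 0.849. These rested on 1 tumour. Without AAV-∆mut-p53 2 the log2 fold changes were -0.99, -1.16, -0.34 and -0.91 in the same order, with FDR from 0.669 to 0.939. Hdc kept a log2 fold change of 2.16 without that tumour (FDR = 0.496), and its range was 1.93 to 2.90 over the 9 fits that each left out 1 tumour. DESeq2 returned no p-value for the 4 proteases. The 95% intervals of the protease fold changes with all tumours had lower ends below 0 and upper ends of 4.18 to 5.21. The sign of a difference was thus not resolved at this spread.

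**Figure D4:**
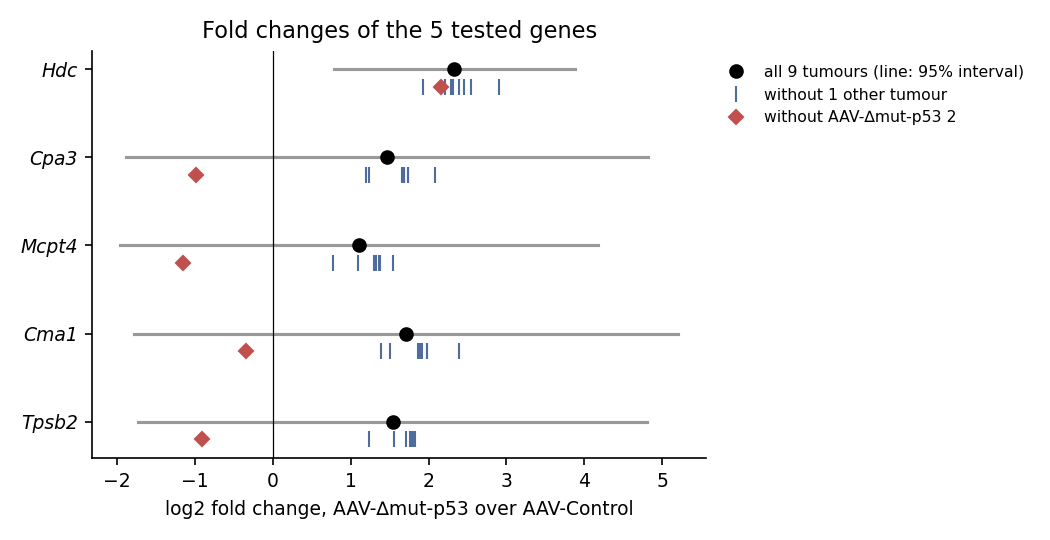
Log2 fold changes of the 5 tested genes, AAV-∆mut-p53 over AAV-Control, from edgeR's quasi-likelihood fit, with black points and 95% intervals for all 9 tumours, ticks for fits without 1 other tumour and diamonds for the fit without AAV-∆mut-p53 2. The diamonds of Cpa3, Mcpt4, Cma1 and Tpsb2 lie below 0, from -0.34 to -1.16, and that of Hdc at 2.16.

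Hdc and Cpa3 were set against each other and against markers of other cells. Over the 9 tumours the log2(CPM + 1) of Hdc and Cpa3 had Pearson's r = 0.19 (permutation p = 0.686) and Spearman's rho = -0.13 (permutation p = 0.744). Without the 2 tumours farthest from the median of Cpa3 r was -0.71 (permutation p = 0.0589), so the relation rests on those tumours. Hdc against the mean of 13 neutrophil genes gave r = 0.71 (permutation p = 0.0285, adjusted p = 0.0704 over 9 relations) and rho = 0.58 (permutation p = 0.111, adjusted p = 0.33), with r = 0.64 without the 2 farthest tumours. Hdc against 10 skeletal muscle genes gave r = 0.65 (permutation p = 0.0313, adjusted p = 0.0704) and rho = 0.63 (permutation p = 0.0762, adjusted p = 0.33), and r = 0.62 without the 2 farthest tumours.

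Cpa3 was set against the same lists. With 8 fibroblast genes it gave r = 0.82 (permutation p = 0.0156, adjusted p = 0.0702) and rho = 0.53 (permutation p = 0.147, adjusted p = 0.33), and r = 0.67 without the 2 farthest tumours. With 7 adipocyte genes it gave r = 0.87 (permutation p = 0.0147, adjusted p = 0.0702) and rho = 0.45 (permutation p = 0.23, adjusted p = 0.414), and r = 0.55 without the 2 farthest. With muscle genes r was 0.78 (permutation p = 0.0768) and rho 0.05 (permutation p = 0.91), and r was -0.09 without the 2 farthest tumours. With neutrophil genes r was -0.18 (permutation p = 0.57) and rho -0.67 (permutation p = 0.0586). Hdc had r = -0.04 with fibroblast genes (permutation p = 0.931), and r = -0.76 without the 2 farthest tumours (permutation p = 0.0508). With adipocyte genes Hdc had r = 0.35 (permutation p = 0.384), and r = -0.54 without the 2 farthest tumours (permutation p = 0.211). None of the 9 relations passed after Benjamini-Hochberg adjustment.

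**Figure D5:**
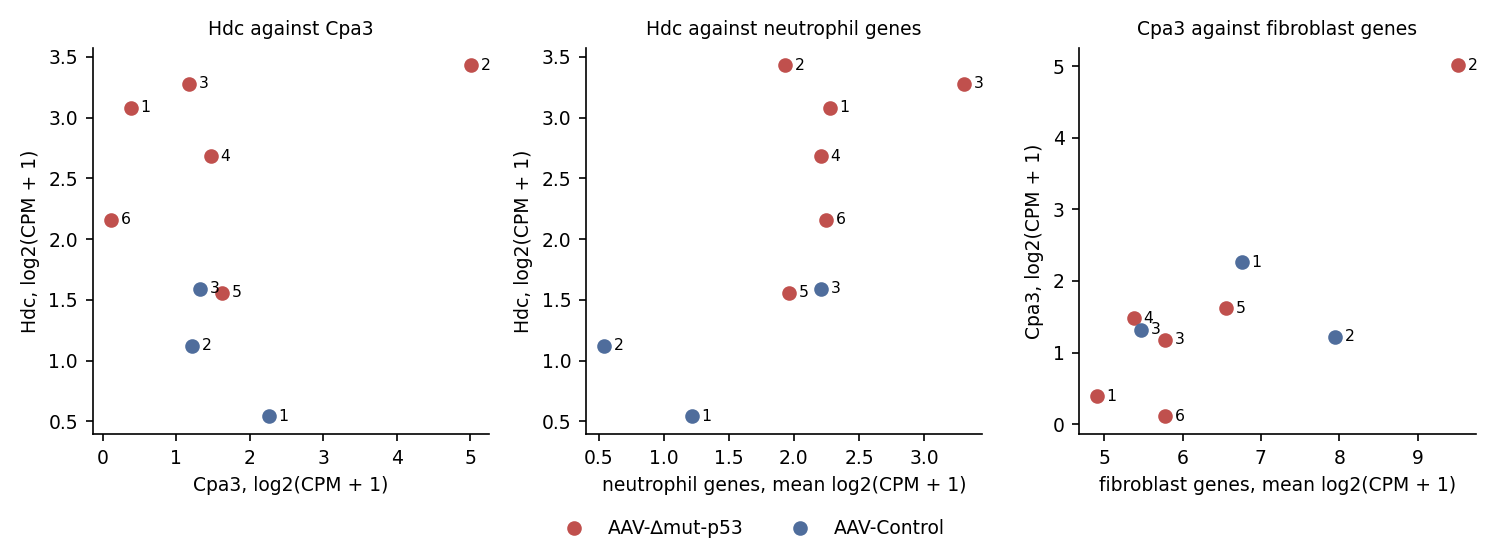
Scatter plots over the 9 tumours, on log2(CPM + 1) scales, of Hdc against Cpa3, Hdc against the mean of the neutrophil genes and Cpa3 against the mean of the fibroblast genes, with each point labelled by tumour number. AAV-∆mut-p53 2 lies alone at the high end of Cpa3 in the panels that plot it, at 5.01.

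The neutrophil list, given beside Hdc because immature myeloid cells can make it, summed to 62 to 249 CPM in AAV-∆mut-p53 and 7.8 to 75.3 CPM in AAV-Control tumours. All 11 of its 13 genes that were tested had a higher mean in AAV-∆mut-p53 tumours (median log2 fold change 1.59), where 10902 of all 19606 tested genes did (median 0.09). Of the 11, 2 were higher at an unadjusted p under 0.05, beside 3.82% of all tested genes. Some of the 11 passed the filter on low counts only with AAV-∆mut-p53 tumours. Retnlg, Camp and Ngp, for example, had 0, 0 and 1 counts in AAV-Control 2. The shared direction of the 11 is thus not read as support. Csf3r, the receptor for granulocyte colony-stimulating factor, had 11.5, 24.2, 29.5, 8.59, 4.6 and 13.9 CPM in AAV-∆mut-p53 tumours 1 to 6, against 3.51, 3.4 and 7.33 CPM in AAV-Control tumours 1 to 3. As with Hdc, AAV-∆mut-p53 5 alone lay within the range of the AAV-Control tumours. Other genes of the list were unlike Hdc in AAV-∆mut-p53 2, where S100a8, S100a9 and Cxcr2 had 44, 78 and 33 counts. AAV-Control 3 had 438, 550 and 106 counts of the same genes. Retnlg and Mpo, in contrast, were highest in AAV-∆mut-p53 2. The granulocyte surface gene Ly6g had 0 counts in AAV-∆mut-p53 2 and 6 and in AAV-Control 2, and at most 7 elsewhere. AAV-∆mut-p53 2, with the most Hdc, had a neutrophil sum of 95 CPM, below AAV-∆mut-p53 1, 3, 4 and 6. The part of neutrophils in the Hdc values was not tested.

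Basophil genes were scarce. Mcpt8, a basophil protease, had 46 counts in AAV-∆mut-p53 3 and at most 3 in any other tumour. In AAV-∆mut-p53 3 the basophil genes Prss34 and Cd200r3 had 0 and 1 counts. The 5 basophil markers summed to 2.06 to 5.5 CPM in AAV-∆mut-p53 and 1.86 to 4.99 CPM in AAV-Control tumours. Of 3 tested, 2 had a higher and 1 a lower mean (median log2 fold change 0.17, and -0.52 without AAV-∆mut-p53 2). Cd200r3, 1 of the 2 with a higher mean, had 2, 3 and 3 counts in AAV-Control tumours 1 to 3. It passed the filter on low counts through the AAV-∆mut-p53 tumours, so its direction is not read as support. Hdc was at 8.74 CPM in AAV-∆mut-p53 3 and at 7.46 CPM in AAV-∆mut-p53 1, which had 0 counts of Mcpt8 and Prss34. The part of basophils in the Hdc values was not tested.

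Genes most like Hdc and Cpa3 across the 9 tumours were taken from the 13853 tested genes that averaged 1 CPM or more, by Pearson's r of log2(CPM + 1), as a description. For Hdc they were Saa3, an acute-phase serum amyloid (r = 0.97), Zcchc2 (0.97), Zdhhc24 (0.94), the protease inhibitor gene Serpinb8 (0.94) and Ptger2, a prostaglandin E2 receptor (0.94). Saa3 had 27.9, 30.6, 31.2, 23.3, 4.2 and 15.5 CPM in AAV-∆mut-p53 tumours 1 to 6, against 0.562, 0.834 and 4.48 CPM in AAV-Control tumours 1 to 3. AAV-∆mut-p53 5 was the lowest of its group and just under AAV-Control 3 for Saa3 as for Hdc. For Cpa3 they were Krt222 (0.99), Cma1 (0.99), Mcpt4 (0.98), the lectin-like receptor gene Klrd1 (0.98) and Gimap1, a GTPase gene of lymphocytes (0.98). Over the 6 pairs of Cpa3, Mcpt4, Cma1 and Tpsb2, r ran from 0.96 to 0.99, and from 0.82 to 0.94 without AAV-∆mut-p53 2. Krt222, a keratin gene, had 0.45, 16.3, 0.733, 1.51, 1.28 and 0.0815 CPM in AAV-∆mut-p53 tumours 1 to 6, against 2.92, 0.967 and 1.74 CPM in AAV-Control tumours 1 to 3, with 353 counts in tumour 2 and 2 in tumour 6.

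Among 14 other mast cell genes 10 were tested, 7 with a higher and 3 with a lower mean in AAV-∆mut-p53 tumours (median log2 fold change 1.13, and 0.14 without AAV-∆mut-p53 2). Of the 7, Adora3, Cd200r3 and Slc6a4 passed the filter on low counts only with AAV-∆mut-p53 tumours, so their direction is not read as support. Mitf, a transcription factor of mast cells and melanocytes, had 42.6, 51.4, 17.4, 38.8, 22.5 and 35 CPM in AAV-∆mut-p53 tumours 1 to 6, against 11.2, 10.1 and 19.6 CPM in AAV-Control tumours 1 to 3 (log2 fold change 1.35, SE 0.42, FDR = 0.677 by edgeR). Only AAV-∆mut-p53 3 overlapped the AAV-Control range. Mitf was at an unadjusted p under 0.05, as 3.82% of all tested genes were in the same direction. Adora3, the adenosine A3 receptor, was at 4.25 CPM in AAV-∆mut-p53 2, 0.177 to 0.733 CPM in the other AAV-∆mut-p53 tumours and 0.0792 to 0.105 CPM in AAV-Control tumours, on 2 or 3 counts each. It passed the filter on low counts through the AAV-∆mut-p53 tumours, so its unadjusted p of 0.012 by edgeR is not read as support. Gata2 was at 0.537 to 2.49 CPM in AAV-∆mut-p53 and 0.634 to 3.3 CPM in AAV-Control tumours (log2 fold change -0.74, FDR = 0.776 by edgeR). Tal1, another blood lineage factor, averaged 1.12 ± 0.386 CPM (SD, n = 6) in AAV-∆mut-p53 and 2.27 ± 0.695 CPM (SD, n = 3) in AAV-Control tumours.

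Of 9 other granule proteases of mast cells and basophils only granzyme B was tested. Gzmb, which cytotoxic lymphocytes also make, was at 18.5 CPM in AAV-∆mut-p53 2, 0.225 to 2.29 CPM in the other AAV-∆mut-p53 tumours and 0.367 to 0.738 CPM in AAV-Control tumours.

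In the list of histamine clearance and receptors, 4 of 7 genes were tested, 3 with a higher and 1 with a lower mean (median log2 fold change 1.05, and 0.19 without AAV-∆mut-p53 2), none at an unadjusted p under 0.05. Hnmt, which methylates histamine and inactivates it, was at 7.67 CPM in AAV-∆mut-p53 2, 0.611 to 2.06 CPM in the other AAV-∆mut-p53 tumours and 1.34 to 1.7 CPM in AAV-Control tumours. The receptor genes Hrh1 and Hrh2 were likewise highest in AAV-∆mut-p53 2, at 10.7 and 3.79 CPM. Aoc1, the diamine oxidase that degrades extracellular histamine, was at 0 to 7.38 CPM in AAV-∆mut-p53 and 0 to 24.7 CPM in AAV-Control tumours. Hrh4 had at most 2 counts and Hrh3 at most 3 in any tumour.

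A higher mean in AAV-∆mut-p53 tumours was found for 10902 of all 19606 tested genes. The IgE receptor signalling list had 13 of 14 genes with a higher and 1 with a lower mean (median log2 fold change 0.88, and 0.51 without AAV-∆mut-p53 2), none at an unadjusted p under 0.05. These kinases and adaptors, such as Syk, Lyn and Btk, serve many leukocytes. Macrophage genes are given beside them. All 10 had a higher mean (1 at an unadjusted p under 0.05, beside 3.82% of all tested genes), with sums of 482 to 4090 CPM in AAV-∆mut-p53 and 741 to 1100 CPM in AAV-Control tumours. The part of macrophages in the signalling genes was not tested. T cell markers had 3 of 6 tested genes higher and 3 lower (median log2 fold change 0.25, and 0.02 without AAV-∆mut-p53 2), with sums of 4.35 to 42.4 CPM in AAV-∆mut-p53 and 10.4 to 38 CPM in AAV-Control tumours.

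The list of prostaglandin D2 and leukotriene synthesis, lipid mediators that mast cells release, had a higher mean for all 8 genes (median log2 fold change 1.65, and 0.75 without AAV-∆mut-p53 2), as 10902 of the 19606 tested genes had. At an unadjusted p under 0.05 there were 3, Ptgds, Lta4h and Ptgs1, all higher, beside 3.82% of all tested genes. Ptgds had 6 counts in AAV-Control 1 and Ltc4s had 5 in AAV-Control 3. Both passed the filter on low counts only with AAV-∆mut-p53 tumours. Their direction and the p-values of Ptgds are thus not read as support. Ptgds was at 116 CPM in AAV-∆mut-p53 6, 0.97 to 11.6 CPM in the other AAV-∆mut-p53 tumours and 0.211 to 1.66 CPM in AAV-Control tumours. Its log2 fold change was 4.60, and 2.20 without AAV-∆mut-p53 6 (unadjusted p = 0.041 by edgeR). DESeq2 returned no p-value for Ptgds. AAV-∆mut-p53 6, with the most Ptgds, had 2 counts of Cpa3 and 0 of Cma1. Which cells made the transcripts of this list was not tested. Hpgds, the haematopoietic prostaglandin D synthase, was at 58.6 CPM in AAV-∆mut-p53 2, 15.6 to 24.2 CPM in the other AAV-∆mut-p53 tumours and 9.57 to 20.1 CPM in AAV-Control tumours. Ptgs1, the constitutive cyclooxygenase, had 10.3, 16.1, 55, 6.64, 9.38 and 40.2 CPM in AAV-∆mut-p53 tumours 1 to 6, against 5.76, 7.54 and 9.27 CPM in AAV-Control tumours 1 to 3 (log2 fold change 1.61, FDR = 0.677 by edgeR). AAV-∆mut-p53 3 and 6 were the highest and AAV-∆mut-p53 4 lay within the AAV-Control range. Without AAV-∆mut-p53 3 the log2 fold change was 1.14 (unadjusted p = 0.0984 by edgeR).

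Granule proteoglycan and heparin synthesis genes had 5 of 9 higher and 4 lower (median log2 fold change 0.01), none at an unadjusted p under 0.05. Srgn, the serglycin core protein on which granule proteases are stored and which other leukocytes also make, was at 256 CPM in AAV-∆mut-p53 2, 13.4 to 122 CPM in the other AAV-∆mut-p53 tumours and 19.5 to 89.6 CPM in AAV-Control tumours. Mast cell growth factors had 3 of 6 tested genes higher and 3 lower (median log2 fold change 0.02). Kitl, the stem cell factor, was at 83.5 to 530 CPM in AAV-∆mut-p53 and 171 to 468 CPM in AAV-Control tumours, with its lowest value in AAV-∆mut-p53 2, where Cpa3 was highest.

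Connective tissue, fat, muscle and epithelial markers were read beside the proteases. Fibroblast genes summed to 17000 CPM in AAV-∆mut-p53 2, 793 to 3010 CPM in the other AAV-∆mut-p53 tumours and 765 to 7200 CPM in AAV-Control tumours, with 5 of 8 higher and 3 lower (median log2 fold change 0.27, and -1.40 without AAV-∆mut-p53 2). Adipocyte genes summed to 516 CPM in AAV-∆mut-p53 2, 17.4 to 95.8 CPM in the other AAV-∆mut-p53 tumours and 69.2 to 153 CPM in AAV-Control tumours, with 5 of 7 higher (median log2 fold change 1.85, and -0.15 without that tumour). All 10 muscle genes had a higher mean (median log2 fold change 5.98, and 0.68 without it). The 8 mammary epithelium genes summed to 222 CPM in AAV-∆mut-p53 2, 1360 to 5100 CPM in the other AAV-∆mut-p53 tumours and 1460 to 2830 CPM in AAV-Control tumours, with 5 higher and 3 lower (median log2 fold change 0.57). Whether the make-up of that sample accounts for its protease counts was not tested. Among the other 8 tumours the highest Cpa3 was in AAV-Control 1, at 3.79 CPM, with a fibroblast sum of 2640 CPM, while AAV-Control 2 had 1.33 CPM of Cpa3 at a fibroblast sum of 7200 CPM.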

How the data were processed

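Per the labels' protocols, total RNA of flash-frozen tumours went into stranded libraries. The authors deposited raw read counts per gene and tumour, used here as they stood. The submitters' processing notes name STAR 2.6.0b, DESeq2 and GRCm38 without their roles. No source used here gives the counter, its strand setting or the annotation. Symbols were found for 49326 of 49585 identifiers without version. Positions are from GENCODE mouse release 21 on GRCm38, and 0 columns were without a sample.

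Genes kept by filterByExpr (minimum count of 10) entered edgeR's quasi-likelihood test (edgeR 4.0.16, R 4.3.3), 2-sided, without covariates, with Benjamini-Hochberg adjustment over 19606 genes. SE come from that fit. A gene can pass this filter through the tumours of 1 group alone, and the direction of such a gene is not read as support. Alternatives used library size alone, RLE factors, DESeq2 1.42.0, limma 3.58.1 voom with quality weights, other filters, AAV-∆mut-p53 4 and 5 summed and each tumour left out. The edgeR, DESeq2 and voom fits were tested on simulated counts. Correlations used 100000 random pairings. Replicates differed by more than sampling noise (chi-square per degree of freedom of at least 171).

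The 8 genes and 15 other lists were chosen with earlier results of these data known. Named genes were the 8, 10 fixed ones, up to 3 per list by smallest p and 5 most like Hdc and Cpa3, of which the text gives a part. Il1rl1 and Epcam were added after their values were seen. CPM use TMM factors, and intervals and floors cover counting error only.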

Additional observations from a re-analysis of the deposited data

Results flagged for a closer look

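Among the 6 AAV-∆mut-p53 tumours, AAV-∆mut-p53 2 lay far from the other 5 for most of these genes, by the gap to its nearest neighbour relative to the whole range (Dixon's ratio above 0.625). It held 31.1 CPM of Cpa3, 13.2 CPM of Mcpt4, 24.3 CPM of Cma1, 15.7 CPM of Tpsb2, 0.832 CPM of Fcer1a and 1.52 CPM of Ms4a2, where the group medians were 1.53, 0.723, 1.7, 0.733, 0.137 and 0.0667 CPM. Hdc and Tpsab1 did not stand apart in this way. Summed lists for which the same tumour stood apart were other mast and basophil proteases at 19 CPM, other mast cell genes at 1380 CPM, macrophage genes at 4090 CPM, muscle genes at 16100 CPM, fibroblast genes at 17000 CPM and adipocyte genes at 516 CPM. The first 2 sums came mostly from 1 gene each, Gzmb at 18.5 CPM and Il1rl1 at 1220 CPM. Kit, of the same list as Il1rl1, was at its lowest there, at 28.7 CPM. AAV-∆mut-p53 3 stood apart for the mast cell growth factors, at 580 CPM. Chance flags about 1 in 20 groups of normally distributed values, which CPM and their sums need not be, so that rate may not hold here. In all 23 groups were examined, all within 1 set of 6 tumours.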

How the results depend on the processing

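The log2 fold change of Hdc was 1.93 to 2.90 over all alternatives, and DESeq2 alone called it (FDR = 0.0418, against 0.204 to 0.907 otherwise). The protease values turned negative without AAV-∆mut-p53 2 (Cpa3 -0.99, Mcpt4 -1.16, Cma1 -0.34, Tpsb2 -0.91; at most 2.08, 1.54, 2.39 and 1.83 without any other tumour) and with voom quality weights (-1.40, -1.32, -1.19 and -1.17), as did Hnmt (-0.34, at most 0.77 without another tumour, and -0.11). With 0.1 CPM as pseudocount their permutation differences were -0.43, -0.42, -0.05 and -0.27. Saa3 and Serpinb8 were called by DESeq2 (FDR = 0.00265 and 0.014). The number of genes past the FDR threshold was 104 with DESeq2 and 0 in all other fits. Unadjusted p was under 0.05 for 1387 of 19606 genes in the main fit and for 2443 of 35482 without a filter. When 1 tumour was left out the number ran from 874 of 20625 genes, without AAV-Control 2, to 2009 of 19457, without AAV-∆mut-p53 5. Of the 8 genes, the groups of 1, Hdc, did not overlap with library size alone, and 0 to 1 with 1 tumour left out, Hdc being that 1 without AAV-∆mut-p53 5 or AAV-Control 3. Without the 2 farthest tumours r was -0.71 for Hdc and Cpa3 and -0.09 for Cpa3 and muscle genes. It was then -0.76 for Hdc and fibroblast genes and -0.54 for Hdc and adipocyte genes. With AAV-∆mut-p53 4 and 5 summed r was 0.02 for Hdc and fibroblast genes. The causes were not tested. Counts under 10 in most tumours limit Tpsab1, Fcer1a and Ms4a2. No paired analysis was possible because replicate numbers here are in accession order and pair no tumours.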
